A study of Mus musculus with 14 samples.

Results

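The D-type cyclins Ccnd1, Ccnd2 and Ccnd3, the E-type cyclins Ccne1 and Ccne2, and their partner kinases Cdk2, Cdk4 and Cdk6 were followed across 14 RNA-seq libraries of sorted mouse hair follicle stem cells. These 8 genes were chosen by name, as the cyclins and cyclin-dependent kinases that drive cells through G1 and into S phase, out of 34049 genes with at least 1 count in any library. The study compared mice labelled Irx5KO, for a knockout of the homeodomain transcription factor Irx5, with wild-type (WT) mice at postnatal days 18 and 20 (P18 and P20), around the time at which mouse back skin follicles leave rest. P20 had 4 Irx5KO and 4 WT libraries by label, and P18 had 3 of each. Cells came from trypsin-digested back skin and were sorted as CD34+ and Ly-6A/E- with a further surface marker written as CD45f+ in the labels. No source used here gives the kind of Irx5 allele, the strain, the sex or how many animals went into a library. Since no label ties a library to an animal of its own, the p-values cover library-to-library spread, part of which may be technical.

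The deposited data carry date codes, 2 at each age, whose meaning was not given. At P20 the later date held Irx5KO 1 and 2 with WT 1 and 2, and the earlier date held Irx5KO 3 and 4 with WT 3 and 4. At P18 the later date held Irx5KO 2 and 3 with WT 3, and the earlier date held Irx5KO 1 with WT 1 and 2. The library labelled WT 3 at P18 also carries the letters het in its deposited data.

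Irx5 itself went against the labels at the earlier P20 date. There it measured 181 and 170 CPM (counts scaled to library size) in Irx5KO 3 and 4, against 33.3 and 37.6 CPM in WT 3 and 4. At the later P20 date it measured 30.0 and 18.1 CPM in Irx5KO 1 and 2, against 108 and 93.6 CPM in WT 1 and 2, and at P18 48.0, 70.6 and 73.4 CPM in Irx5KO, against 93.8, 110 and 132 CPM in WT. Groups are therefore named throughout as labelled, and P20 is described first by date, with comparisons over both dates after it. Library totals ran from 13618367 to 70083873 estimated counts. All 12 markers of the follicle bulge, the stem cell niche, were detected in every library, with a summed level of 20980 to 47683 CPM.

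D-type cyclins are made in response to mitogens and bind Cdk4 or Cdk6, and the active kinases phosphorylate the retinoblastoma protein and its relatives, which frees E2F transcription factors. E2F factors switch on Ccne1, Ccne2 and the DNA replication genes, and cyclin E with Cdk2 completes the phosphorylation and starts S phase. Inhibitors of the Ink4 family (such as Cdkn2c) hold back Cdk4 and Cdk6, whereas those of the Cip/Kip family (Cdkn1a, Cdkn1b and Cdkn1c) bind cyclin-Cdk complexes more widely. Bulge stem cells rest for most of the hair cycle and divide when a new growth phase begins.

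Promoters of the 3 kinases are shown because Cdk4, Cdk6 and, less clearly, Cdk2 lay together at P20. RefSeq (GRCm38.p6) windows were found for 5 of the 8 members, and Ccnd1, Ccnd2 and Ccne2 had none. Each window holds the 250 bases before the transcript start, read 5′ to 3′ on the gene's strand. Both strands were searched for the E-box CACGTG, bound by Myc proteins among others, for the E2F-type motifs TTTCCCGC, TTTGGCGC and TTTCGCGC, and for the AP-1 motifs TGACTCA and TGAGTCA. Capitals mark every match.
Cdk4, chr10:127063285-127063534, plus strand: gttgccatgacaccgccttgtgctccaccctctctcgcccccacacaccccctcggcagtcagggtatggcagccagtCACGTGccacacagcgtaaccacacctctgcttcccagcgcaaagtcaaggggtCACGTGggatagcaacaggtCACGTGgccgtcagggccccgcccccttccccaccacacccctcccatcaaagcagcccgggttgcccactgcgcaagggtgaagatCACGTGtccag
Cdk6, chr5:3343643-3343892, plus strand: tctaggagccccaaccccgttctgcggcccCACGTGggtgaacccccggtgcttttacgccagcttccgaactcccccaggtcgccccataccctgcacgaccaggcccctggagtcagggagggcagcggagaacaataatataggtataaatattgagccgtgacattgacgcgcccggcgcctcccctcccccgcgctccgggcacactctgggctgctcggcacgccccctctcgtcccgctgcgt
Cdk2, chr10:128705052-128705301, minus strand: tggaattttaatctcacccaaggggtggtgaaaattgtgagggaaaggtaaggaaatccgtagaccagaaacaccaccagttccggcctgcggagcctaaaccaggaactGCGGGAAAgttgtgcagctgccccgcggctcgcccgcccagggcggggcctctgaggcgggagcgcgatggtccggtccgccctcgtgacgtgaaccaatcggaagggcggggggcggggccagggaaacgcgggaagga
The Cdk4 window held 4 E-boxes, which start 172, 118, 98 and 11 bases before the transcript start, and the Cdk6 window held 1, at 220 bases. GCGGGAAA in the Cdk2 window, at 140 bases, is TTTCCCGC read on the other strand. An E-box was found in 6.02% of 32851 promoter windows of this length, an E2F-type motif in 1.53% and an AP-1 motif in 4.46%. The windows of Ccnd3 and Ccne1 held none of these letters.

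Per unit of transcript length, Ccnd3 had the highest mean level of the D cyclins and Cdk4 of the kinases over the 14 libraries, though not in each of them. Ccnd2 was above Ccnd3 in P20 Irx5KO 3 (107 and 56.4 TPM), Irx5KO 4 (43.3 and 40.3 TPM) and WT 2 (39.2 and 34.4 TPM), and Cdk2 was above Cdk4 in P20 Irx5KO 2 (21.4 and 20.4 TPM). On the TPM scale (a share of transcripts, corrected for length) Ccnd3 averaged 64.3 ± 22.8 (SD, n = 14), Cdk4 50.3 ± 28.9, Ccnd2 36.5 ± 24.4, Cdk2 19.3 ± 5.34, Ccnd1 19.1 ± 12.9 and Cdk6 15.5 ± 6.74. Lowest were the E cyclins, with Ccne2 at 8.35 ± 8.47 TPM and Ccne1 at 5.70 ± 4.14 TPM. Neighbours in this order overlapped in range over the 14 libraries in every case. Within P18, the Ccnd3 level was above that of Cdk4 in every library, at 67.4 ± 8.52 TPM in Irx5KO and 61.2 ± 3.66 TPM in WT for Ccnd3, and at 39.1 ± 4.31 TPM in Irx5KO and 40.0 ± 7.07 TPM in WT for Cdk4 (SD, n = 3 each). Counting only transcripts annotated as protein coding, Ccnd3 averaged 58.4 TPM, Ccnd2 24.8, Cdk4 21.6, Ccnd1 17.7, Cdk6 15.1 and Cdk2 9.95 TPM, and the E cyclins changed places, at 4.59 TPM for Ccne1 and 1.30 TPM for Ccne2. Short transcripts weigh more in TPM than in counts: a retained-intron transcript of Cdk4 of 468 bases held 26.2% of the gene's TPM and 8.38% of its counts, and a Ccne2 transcript of 432 bases held 40.1% of TPM and 18.9% of counts.

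**Figure D1:**
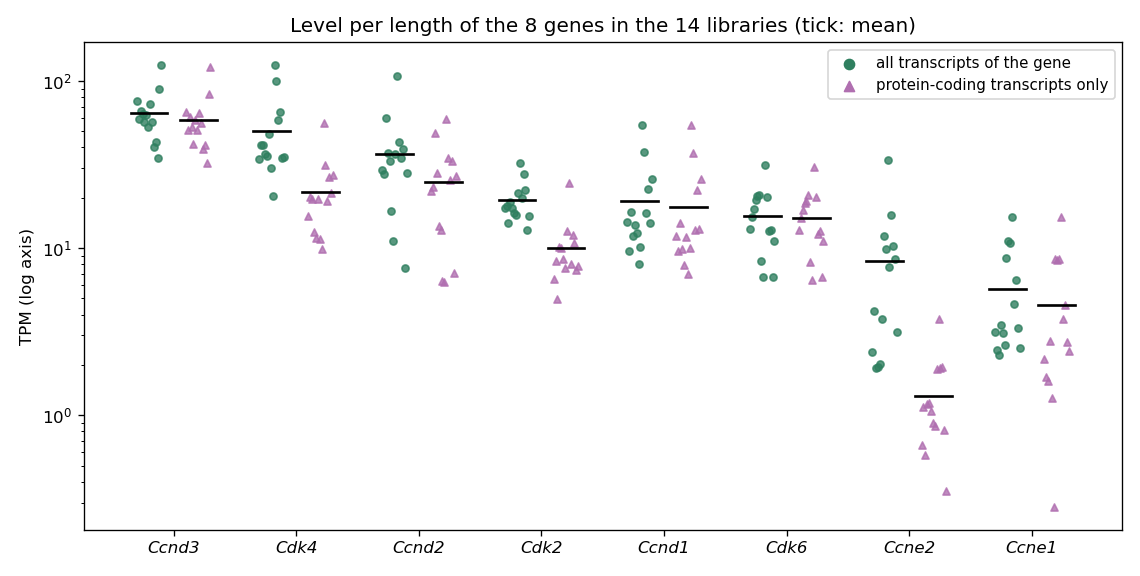
Level of each G1 cyclin and kinase in TPM on a log axis, with a point for each of the 14 libraries and a tick at the mean, for all transcripts of the gene (circles) and for protein-coding transcripts only (triangles). Ccnd3 (64.3 TPM on average) and Cdk4 (50.3 TPM) lie highest over all transcripts and the E cyclins (8.35 and 5.70 TPM) lowest, and Ccne2 drops to 1.30 TPM on protein-coding transcripts.

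At the later P20 date Irx5 went with the labels, lower in Irx5KO. The D cyclins Ccnd1 and Ccnd2 and the kinases Cdk4 and Cdk6 lay lower in Irx5KO, and Ccnd3 lay higher. Of the 8 members, 2 passed the test, and both fell: Cdk4, the main partner of D cyclins, by 1.23 ± 0.25 (SE) on the log2 scale with an adjusted p of 0.030, and Ccnd2, a D cyclin, by 1.78 ± 0.36 with an adjusted p of 0.038 (edgeR quasi-likelihood test, Benjamini-Hochberg adjustment over all genes tested). Of the 24592 genes tested, 0.655% passed, 34 higher and 127 lower.
Ccnd2 measured 39.3 and 39.0 CPM in Irx5KO 1 and 2, against 115 and 154 CPM in WT 1 and 2, a 3.43-fold difference of means. Cdk4 measured 30.7 and 26.2 CPM in Irx5KO, against 61.1 and 72.4 CPM in WT, a 2.35-fold difference of means. Both Irx5KO libraries were below both WT libraries for these 2 genes, and the 2 Irx5KO libraries lay close together.
Both calls rest on each of the 4 libraries of that date. Ccnd2 did not pass without Irx5KO 1 (adjusted p 0.439), Irx5KO 2 (0.544), WT 1 (0.0628) or WT 2 (0.246) of this date, nor without P20 Irx5KO 3 (0.0672) or 4 (0.0658), P18 Irx5KO 1 (0.0542) or P18 WT 3 (0.0537), by the same edgeR test. Cdk4 did not pass without Irx5KO 1 (adjusted p 0.193), Irx5KO 2 (0.492), WT 1 (0.0554) or WT 2 (0.176), nor without P20 WT 3 (0.0626) or 4 (0.0629), or P18 Irx5KO 2 (0.0572) or 3 (0.0578), by edgeR. Under scaling that used all genes, neither passed, with adjusted p of 0.251 for Ccnd2 and 0.401 for Cdk4 (edgeR), nor did they without the 3 libraries rich in receptor genes (P18 WT 1 and 2, P20 WT 2), at 0.192 for Ccnd2 and 0.130 for Cdk4. Ccnd2 also did not pass with a filter of 1 CPM in 3 libraries (edgeR adjusted p 0.0640) or with the P20 libraries alone (0.0524), nor Cdk4 without the earlier date (0.0864).

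The other 6 members did not pass at the later P20 date. Cdk6, the second partner of D cyclins, measured 30.2 and 25.2 CPM in Irx5KO, against 57.8 and 52.3 CPM in WT (log2 fold change -0.99 ± 0.26, edgeR adjusted p 0.14), and passed under 1 of 22 alternatives, DESeq2 (adjusted p 0.00948), which called 1.88% of all genes. Ccnd1, the D cyclin best known as a mitogen and Wnt target, measured 25.8 and 31.8 CPM in Irx5KO, against 46.7 and 75.8 CPM in WT (-1.09 ± 0.34, edgeR adjusted p 0.28). In both genes each Irx5KO library was below each WT library.
Ccnd3 measured 92.1 and 121 CPM in Irx5KO, against 72.1 and 57.6 CPM in WT (log2 fold change 0.72 ± 0.24, edgeR adjusted p 0.39), and is the member with both Irx5KO libraries above both WT libraries. Cdk2, the partner of E cyclins, measured 30.2 and 39.8 CPM in Irx5KO, against 55.6 and 44.9 CPM in WT (-0.52 ± 0.29, edgeR adjusted p 0.74). Ccne2 measured 5.78 and 4.75 CPM in Irx5KO, against 10.0 and 7.74 CPM in WT (-0.75 ± 0.73, edgeR adjusted p 0.87).
For Ccne1 the groups overlapped, at 5.58 and 10.3 CPM in Irx5KO, against 5.60 and 6.09 CPM in WT (0.45 ± 0.77, edgeR adjusted p 0.93). The CPM ranges of the 2 groups were apart for 7 of the 8 members, 1 higher and 6 lower in Irx5KO, where 30% of all genes tested had ranges apart, 12.6% higher and 17.4% lower. The median log2 fold change of the 8 members was -0.87, beside -0.34 over all genes tested and -0.05 over genes of at least 8 CPM on average.

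At the earlier P20 date, where Irx5 was higher in the libraries labelled Irx5KO, the pattern lay the other way round. Ccnd1, Ccnd2, Cdk4 and Cdk6 rose in the libraries labelled Irx5KO and Ccnd3 fell, so that 5 of the 8 members passed, 4 higher and 1 lower. Over all genes 4.82% passed, 2.2% higher and 2.62% lower. The remaining 3 members, Cdk2 and both E cyclins, had higher values in both Irx5KO libraries without passing. Ranges were apart for all 8 members, 7 higher and 1 lower in Irx5KO, where 40.5% of all genes tested had ranges apart, 15.7% higher and 24.8% lower.
Ccnd2 measured 243 and 204 CPM in Irx5KO 3 and 4, against 37.2 and 78.1 CPM in WT 3 and 4 (log2 fold change 1.96 ± 0.37, edgeR adjusted p 0.0056). Cdk4 measured 119 and 116 CPM in Irx5KO, against 43.9 and 49.3 CPM in WT (1.33 ± 0.25, edgeR adjusted p 0.0049). The means differed 3.88-fold for Ccnd2 and 2.51-fold for Cdk4, with the lower Irx5KO library well above the higher WT library in CPM in both. On protein-coding transcripts alone Irx5KO 4 and WT 4 lay closer. Ccnd2 then stood at 58.8 and 34.7 TPM in Irx5KO, against 7.08 and 27.1 TPM in WT. Cdk4 stood at 56.1 and 31.6 TPM in Irx5KO, against 21.4 and 27.3 TPM in WT.
Cdk6 measured 95.3 and 71.6 CPM in Irx5KO, against 30.5 and 38.8 CPM in WT (1.27 ± 0.26, edgeR adjusted p 0.0097). Ccnd1 measured 188 and 153 CPM in Irx5KO, against 45.9 and 81.8 CPM in WT (1.42 ± 0.34, edgeR adjusted p 0.025). These are the highest Ccnd1 and Cdk6 values among the 14 libraries.
Ccnd3, the D cyclin that moved against the others, measured 85.5 and 84.3 CPM in Irx5KO, against 153 and 182 CPM in WT (-0.98 ± 0.25, edgeR adjusted p 0.032). The WT values are the high ones here: the 2 libraries labelled WT held the highest Ccnd3 levels of the 14, whereas the Irx5KO values lay within the range of 79.2 to 112 CPM seen at P18.
Among the members that did not pass, Cdk2 measured 65.2 and 42.6 CPM in Irx5KO, against 26.2 and 27.6 CPM in WT (1.00 ± 0.29, edgeR adjusted p 0.065). Its protein-coding transcripts stood at 24.3 and 8.08 TPM in Irx5KO, against 7.39 and 7.85 TPM in WT. Ccne1 measured 6.95 and 23.4 CPM in Irx5KO, against 3.10 and 2.24 CPM in WT (2.50 ± 0.81, edgeR adjusted p 0.10). Ccne2 measured 15.3 and 13.4 CPM in Irx5KO, against 4.70 and 1.82 CPM in WT (2.13 ± 0.75, edgeR adjusted p 0.14). Irx5KO 4 alone held the high Ccne1 value, whereas Ccne2 was similar in the 2 Irx5KO libraries.
The median log2 fold change of the members was 1.37, beside 0 over all genes tested and -0.01 over genes of at least 8 CPM. Leaving out WT 3 of this date removed all 5 calls, with edgeR adjusted p of 0.137 for Ccnd2, 0.108 for Cdk4, 0.195 for Cdk6, 0.382 for Ccnd1 and 0.098 for Ccnd3. Ccnd3 also did not pass without Irx5KO 3 (0.106), Irx5KO 4 (0.148) or WT 4 (0.188), Ccnd1 without Irx5KO 3 (0.0986), Irx5KO 4 (0.055) or P20 Irx5KO 1 (0.0556) or 2 (0.0564), and Cdk6 without Irx5KO 3 (0.0573) or WT 4 (0.0504), by the edgeR test. Ccne1 passed without Irx5KO 3 (log2 fold change 3.13, adjusted p 0.0297) and Cdk2 without Irx5KO 4 (1.28, 0.0419), by the edgeR test. Both also passed without the 3 libraries rich in receptor genes, and DESeq2 called all 8 members (adjusted p 0.00565 for Ccne1, 0.0174 for Cdk2 and 0.0101 for Ccne2) and 2647 genes in all, 10.8% of those entered. Ccnd1 did not pass with the P20 libraries alone (edgeR adjusted p 0.0569). With scaling on all genes Ccnd2 still passed, while the edgeR adjusted p was 0.062 for Cdk4, 0.110 for Cdk6, 0.091 for Ccnd1 and 0.183 for Ccnd3.

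**Figure D2:**
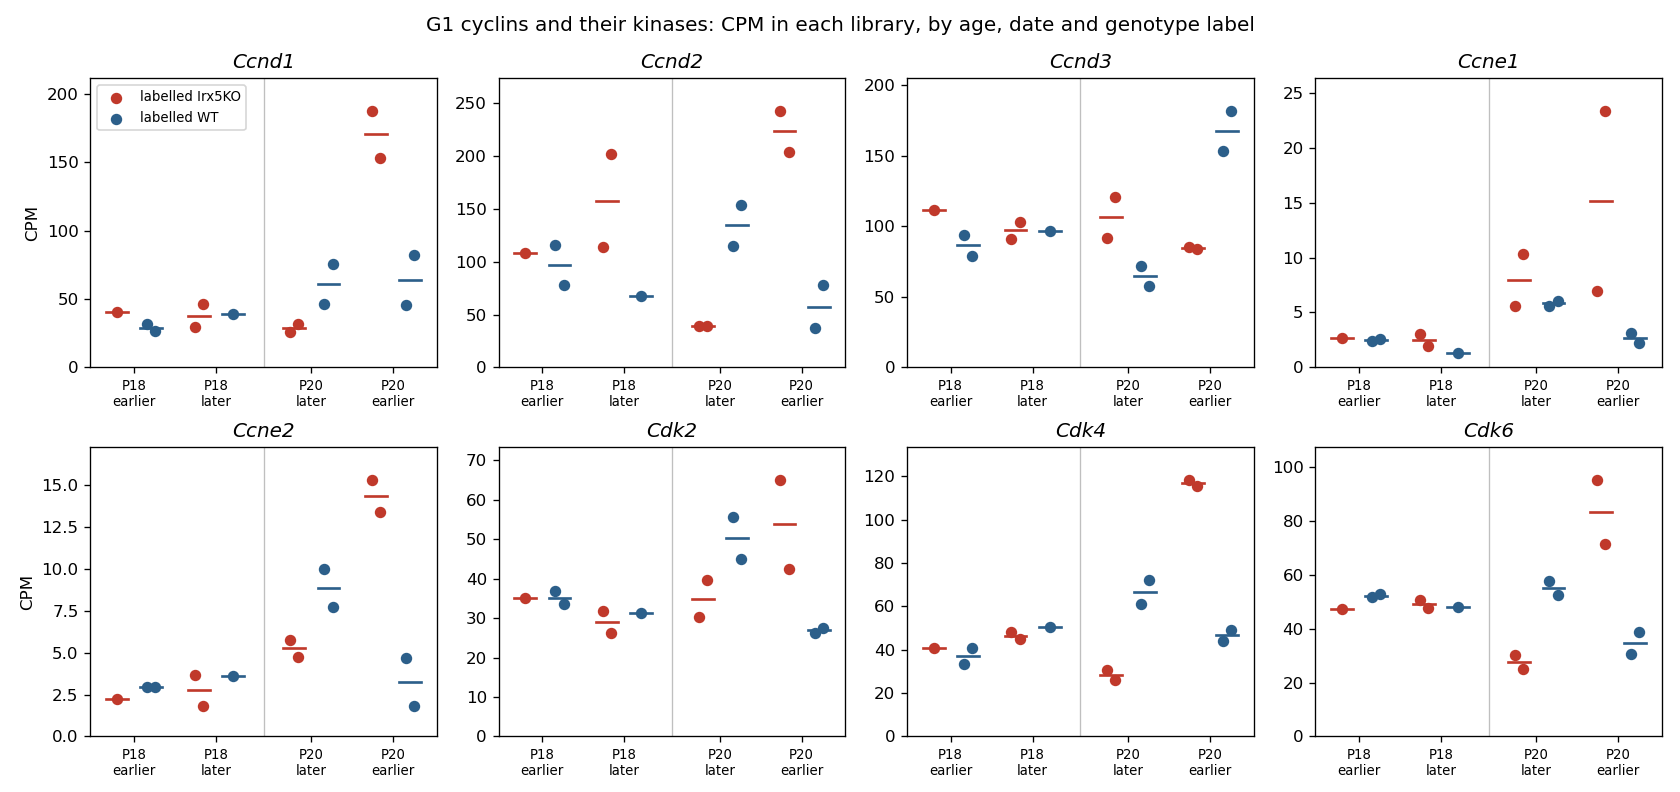
Level of each G1 cyclin and kinase in CPM in the 14 libraries, by age and date, with Irx5KO (red) left of WT (blue) and a tick at the mean of each group. At the later P20 date Ccnd2 lies at 39.3 and 39.0 CPM in Irx5KO and 115 and 154 CPM in WT, at the earlier date at 243 and 204 CPM in Irx5KO and 37.2 and 78.1 CPM in WT, and Ccnd3 lies the other way round.

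Earlier results of these data had already shown the P20 dates to run opposite ways, so the p-values below are no independent evidence of that. The Irx5KO-over-WT difference was tested between the dates, as the later log2 fold change minus the earlier one. For 6 of the 8 members this difference passed, 5 lower and 1 higher at the later date, where 5.16% of all genes passed, 2.48% higher and 2.68% lower. It was -2.56 ± 0.35 (SE) for Cdk4 (edgeR adjusted p 0.00032), -3.74 ± 0.52 for Ccnd2 (0.00041), -2.26 ± 0.37 for Cdk6 (0.0014), -2.50 ± 0.48 for Ccnd1 (0.0047) and -1.53 ± 0.41 for Cdk2 (0.043). Only Ccnd3 among the members differed upwards, by 1.70 ± 0.35 (edgeR adjusted p 0.0078).
The E cyclins did not pass, with differences of -2.06 ± 1.10 for Ccne1 (edgeR adjusted p 0.40) and -2.89 ± 1.04 for Ccne2 (0.15). The median over the members was -2.38, beside -0.12 over all genes tested. Ccnd2, Cdk4 and Cdk6 passed under all 21 alternatives run, with differences between -4.29 and -3.22, between -2.67 and -2.34 and between -2.46 and -2.01. Ccnd1 did not pass without P20 Irx5KO 1 (edgeR adjusted p 0.0534) or P20 WT 3 (0.0613), Ccnd3 did not pass without P20 Irx5KO 2 (0.0549) or with scaling on all genes (0.0945), and Cdk2 passed in 8 of the 21. Among single libraries, the Cdk2 difference was lost without P20 Irx5KO 1 (edgeR adjusted p 0.239), 2 (0.0982) or 3 (0.120), P20 WT 1 (0.110), 3 (0.234) or 4 (0.157), P18 Irx5KO 1 (0.0678), 2 (0.0868) or 3 (0.0880), or P18 WT 3 (0.0671). Irx5 differed between the dates in the same sense as Ccnd1, Ccnd2, Cdk4 and Cdk6, by -4.38 ± 0.38, and Mki67, a marker of dividing cells, by -11.85 ± 0.68.

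**Figure D3:**
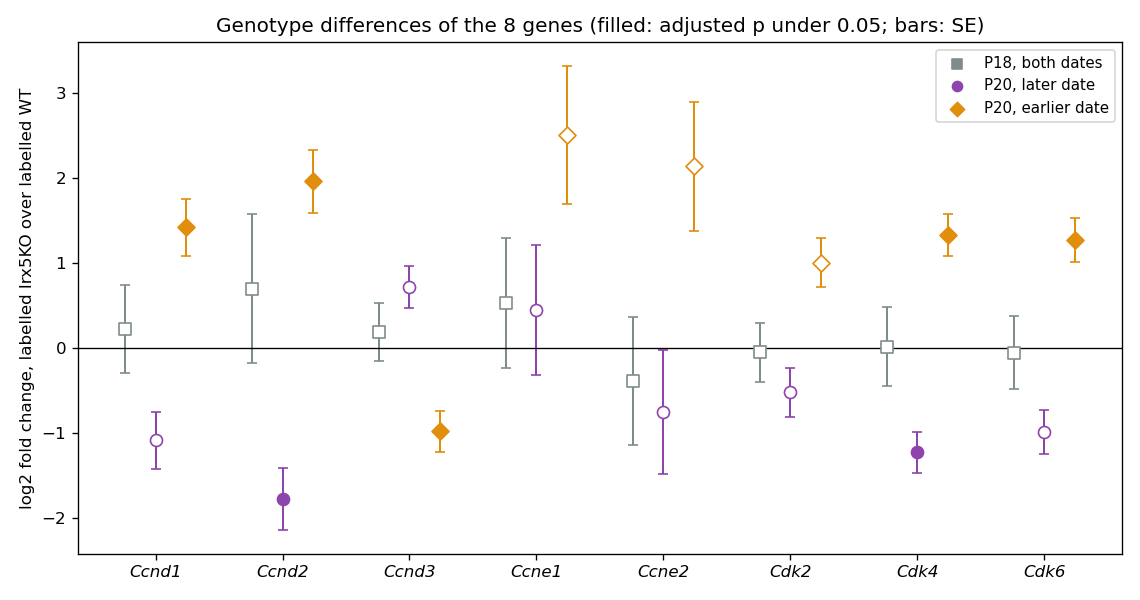
Log2 fold change of each member, Irx5KO over WT as labelled, with its standard error, at P18 and at each P20 date, with filled points for an adjusted p under 0.05. Ccnd2 lies at -1.78 at the later P20 date, at 1.96 at the earlier one and at 0.69 at P18, and Ccnd3 lies at 0.72, -0.98 and 0.19 in the same order.

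Among the D cyclins, the share held by Ccnd3 moved most. In TPM it was 73.7% and 60.7% of the 3 D cyclins in Irx5KO at the later P20 date, against 45.7% and 35.8% in WT, and 25.8% and 33.3% in Irx5KO at the earlier date, against 80.6% and 69.9% in WT. At P18 the Ccnd3 share was 57.2% ± 9.24 in Irx5KO and 60.1% ± 7.41 in WT (SD, n = 3 each). Ccnd2 took much of the rest, with mean shares of 23.0% in Irx5KO and 38.9% in WT at the later P20 date, and 42.5% in Irx5KO and 11.2% in WT at the earlier date. On protein-coding transcripts the Ccnd2 share averaged 8.81% in Irx5KO and 34.9% in WT at the later date, and lay between 31.4% and 34.6% in Irx5KO and between 6.84% and 15.6% in WT at the earlier date. Ccnd1 held 9.79% in Irx5KO and 20.4% in WT at the later date, and 28.0% in Irx5KO and 13.5% in WT at the earlier one. Summed TPM of the 3 D cyclins was 72.2 and 119 in Irx5KO, against 93.8 and 96.2 in WT, at the later date, and 219 and 121 in Irx5KO, against 111 and 179 in WT, at the earlier date. In CPM, which is not per length, the sums were apart: 157 and 192 in Irx5KO, against 234 and 287 in WT, at the later date, and 516 and 441 in Irx5KO, against 236 and 342 in WT, at the earlier date. On protein-coding transcripts alone the mean Ccnd3 share was 79.4% in Irx5KO and 44.4% in WT at the later date, and 34.2% in Irx5KO and 75.1% in WT at the earlier one. The shares follow from the levels tested above and were given no test of their own.

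**Figure D4:**
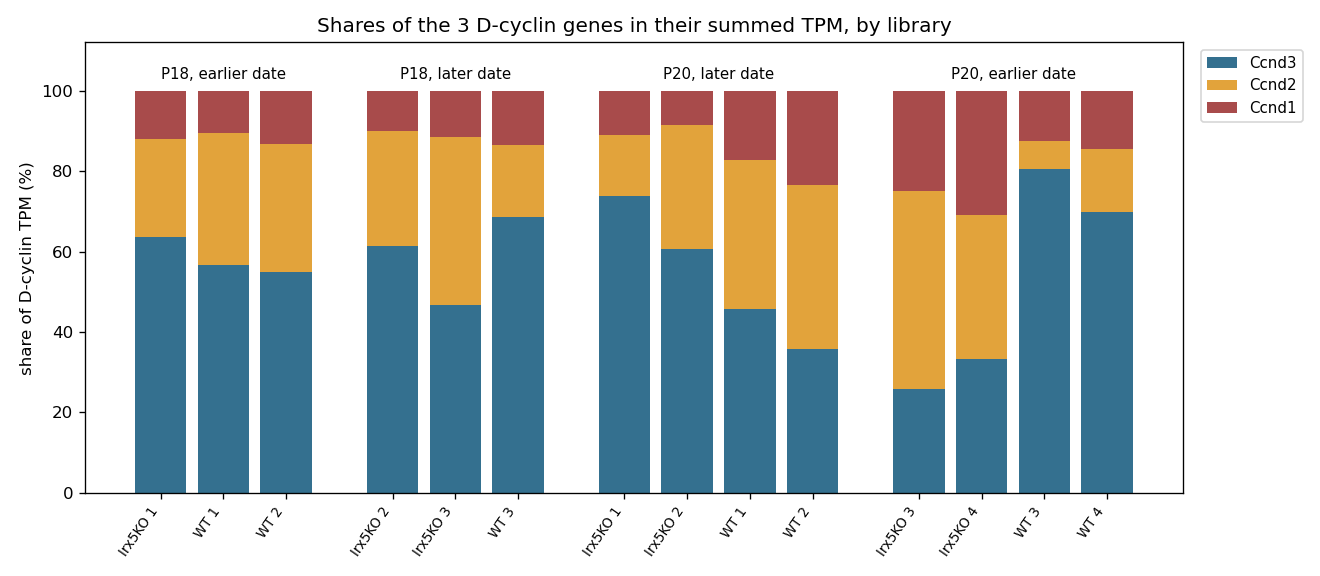
Share of each D cyclin in the summed TPM of Ccnd1, Ccnd2 and Ccnd3, in percent, by library, with Irx5KO left of WT at each age and date. Ccnd3 holds 73.7% and 60.7% in Irx5KO and 45.7% and 35.8% in WT at the later P20 date, and 25.8% and 33.3% in Irx5KO and 80.6% and 69.9% in WT at the earlier date.

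In TPM over all transcripts, the balance of the 2 D-cyclin kinases moved less. Cdk4 held between 63.1% and 83.6% of the summed TPM of Cdk4 and Cdk6 over the 14 libraries. Its mean share was 76.7% (75.2% and 78.2%) in Irx5KO and 82.9% (82.3% and 83.5%) in WT at the later P20 date, and 81.5% in Irx5KO and 79.8% in WT at the earlier date, where the libraries overlapped. At P18 it was 72.0% ± 1.19 in Irx5KO and 66.0% ± 3.39 in WT at P18 (SD, n = 3 each). The share depends on how short transcripts are treated. Over all libraries it averaged 75.4% in TPM, 58.1% on protein-coding TPM and 51.5% in estimated counts. On protein-coding TPM it ran from 37.7% to 76.1%, and the groups did not overlap. At the earlier P20 date it then lay between 60.9% and 64.9% in Irx5KO and between 71.3% and 76.1% in WT. At the later date it lay between 58.1% and 60.7% in Irx5KO and between 61.3% and 67.6% in WT. At P18 it lay between 54.0% and 57.4% in Irx5KO and between 37.7% and 48.7% in WT.

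With both P20 dates in 1 comparison and the date as a covariate, no member and 0 of all genes tested passed (0% of 24592, edgeR), while 1082 genes had an unadjusted p under 0.05 and DESeq2 called 87. The spread within groups is wide: Ccnd2 averaged 131 ± 108 CPM in Irx5KO and 96.0 ± 49.9 CPM in WT (SD, n = 4 each), and Ccnd1 averaged 99.6 ± 83.0 CPM in Irx5KO and 62.6 ± 18.9 CPM in WT. Log2 fold changes were 0.09 ± 0.81 for Ccnd2, 0.16 ± 0.48 for Ccnd1, -0.13 ± 0.29 for Ccnd3, 0.05 ± 0.42 for Cdk4, 0.14 ± 0.37 for Cdk6 and 0.24 ± 0.29 for Cdk2. Ccne1 stood at 1.47 ± 0.63 (edgeR adjusted p 0.83) and Ccne2 at 0.69 ± 0.69. These values join the dates as labelled, although Irx5 went opposite ways in them.

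At P18 no member passed between Irx5KO and WT and 0 of all genes did (0%, edgeR), while 978 genes had an unadjusted p under 0.05 and DESeq2 called 21. Cdk6 measured 47.2, 50.6 and 47.6 CPM in Irx5KO, against 51.6, 52.8 and 47.9 CPM in WT (log2 fold change -0.05 ± 0.43). Cdk4 measured 40.8, 48.3 and 44.7 CPM in Irx5KO, against 33.3, 40.7 and 50.3 CPM in WT (0.01 ± 0.46). These 2 kinases overlapped between genotypes, and Cdk6 stayed in a narrow band of 47.2 to 52.8 CPM.
Ccnd2 measured 108, 114 and 202 CPM in Irx5KO, against 116, 77.7 and 67.5 CPM in WT (0.69 ± 0.87). Ccnd1 averaged 38.7 ± 8.49 CPM in Irx5KO and 32.3 ± 6.14 CPM in WT (0.22 ± 0.52), and Ccnd3 averaged 102 ± 10.3 CPM in Irx5KO and 90.0 ± 9.45 CPM in WT (0.19 ± 0.34; SD, n = 3 each). The highest Ccnd2 value was that of Irx5KO 3, and the other 2 Irx5KO libraries lay just below the highest WT value.
The E cyclins were the lowest of the members, with Ccne1 at 2.71, 3.04 and 1.95 CPM in Irx5KO, against 2.39, 2.62 and 1.30 CPM in WT (0.52 ± 0.77), and Ccne2 at 2.23, 3.68 and 1.83 CPM in Irx5KO, against 2.93, 2.96 and 3.59 CPM in WT (-0.39 ± 0.75). Cdk2 averaged 31.1 ± 4.50 CPM in Irx5KO and 33.9 ± 2.79 CPM in WT (-0.05 ± 0.34). Adjusted p of the members at P18 lay between 0.94 and 1 (edgeR).

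The genotype difference at P20 minus that at P18 passed for no member and for 0 of all genes tested (0%, edgeR), while 335 genes had an unadjusted p under 0.05 and DESeq2 called 22. It was -0.61 ± 1.19 for Ccnd2, 0.94 ± 0.99 for Ccne1 and 1.08 ± 1.02 for Ccne2, and between -0.32 and 0.29 for the other 5 members.

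Between the ages within a genotype, where age and date cannot be told apart, no member passed. In Irx5KO, P20 over P18, Ccne1 averaged 11.6 ± 8.13 CPM at P20 and 2.57 ± 0.557 CPM at P18 (2.17 ± 0.69, edgeR adjusted p 0.15; SD, n = 4 and n = 3). Ccne2 averaged 9.82 ± 5.33 CPM at P20 and 2.58 ± 0.973 CPM at P18 (1.93 ± 0.70, edgeR adjusted p 0.22). Ccnd1 followed at 1.36 ± 0.59 (edgeR adjusted p 0.34), Cdk4 at 0.70 ± 0.45 (0.52) and Cdk2 at 0.51 ± 0.31 (0.48), while 1.57% of all genes passed, 0.614% higher and 0.96% lower at P20. DESeq2 called Ccne1 (adjusted p 0.00591) and Ccne2 (0.0294), with 5.65% of all genes.
In WT the log2 fold changes were 1.02 ± 0.66 for Ccne1, 0.94 ± 0.67 for Ccne2, 0.95 ± 0.59 for Ccnd1, 0.45 ± 0.45 for Cdk4, 0.37 ± 0.33 for Ccnd3 and -0.18 ± 0.37 for Cdk6, and 0.195% of all genes passed, 0.0691% higher and 0.126% lower at P20.
These values depend on which P20 date is kept, and so does the number of genes called. With both dates, 387 of 24592 genes passed in Irx5KO and 48 in WT. With the earlier P20 date alone (Irx5KO 3 and 4, WT 3 and 4), 5 members passed in Irx5KO, all higher at P20: Ccnd1 (2.14, edgeR adjusted p 0.00033), Cdk4 (1.39, 0.0015), Cdk6 (0.79, 0.033), Ccne1 (2.56, 0.032) and Ccne2 (2.48, 0.027), with 3705 genes passing in all. In WT, Ccnd1 (0.98, edgeR adjusted p 0.045) and Ccnd3 (0.90, 0.025) then passed, with 2260 genes in all. Irx5 itself measured 181 and 170 CPM in these P20 Irx5KO libraries, against 48.0 to 73.4 CPM in Irx5KO at P18. In WT it measured 33.3 and 37.6 CPM at this P20 date, against 93.8 to 132 CPM at P18. Age, date and Irx5 level thus cannot be told apart in the earlier-date values. With the later P20 date alone, Ccnd2 fell in Irx5KO, by 1.85 (edgeR adjusted p 0.012), with 571 genes in all. The number of genes tested in these single-date fits is not given here, so the counts carry no share. With 3705 genes passing, beside 387 with both dates, calls were common among all genes in the earlier-date Irx5KO fit.

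The genes around the G1 kinases were read from lists of the same pathway. The lists were drawn up with earlier results of these data known, and are described by counts. Over all genes tested, 0.138% passed higher and 0.516% lower in Irx5KO at the later P20 date. At the earlier date 2.2% passed higher and 2.62% lower.
At the later P20 date, 1 of 6 Cdk inhibitor genes tested rose in Irx5KO: Cdkn1c, a Cip/Kip inhibitor, measured 38.2 and 48.5 CPM in Irx5KO, against 3.80 and 6.16 CPM in WT (3.12 ± 0.41, edgeR adjusted p 0.0018). Cdkn1a, the p53 target that inhibits Cdk2, measured 419 and 389 CPM in Irx5KO, against 204 and 107 CPM in WT, and did not pass (1.38 ± 0.42, edgeR adjusted p 0.31).
At the earlier date both fell in Irx5KO: Cdkn1c measured 5.09 and 4.70 CPM in Irx5KO, against 29.5 and 42.7 CPM in WT (-2.88 ± 0.41, edgeR adjusted p 0.0007), and Cdkn1a 59.9 and 96.3 CPM in Irx5KO, against 363 and 224 CPM in WT (-1.91 ± 0.43, 0.024). The Ink4 inhibitor Cdkn2c rose there, with 25.3 and 24.3 CPM in Irx5KO, against 5.36 and 3.51 CPM in WT (2.48 ± 0.66, edgeR adjusted p 0.045). At both dates, the libraries with more Ccnd2 and Cdk4 were those with less Cdkn1c.

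Of 13 tested genes for pocket proteins, E2f factors and their partners, 6 rose in Irx5KO at the earlier P20 date and none fell, with a median log2 fold change of 1.51 over the list. E2f8, a repressor E2f that is itself an E2F target, measured 45.7 and 44.8 CPM in Irx5KO, against 3.13 and 2.12 CPM in WT (4.10 ± 0.49, edgeR adjusted p 0.00016). Rbl1, which encodes the pocket protein p107, measured 81.8 and 96.4 CPM in Irx5KO, against 21.4 and 16.8 CPM in WT (2.22 ± 0.33, edgeR adjusted p 0.001).
The activator E2f1 (2.90 ± 0.49) and E2f7 (2.94 ± 0.56) were also among the 6. At the later date none of the 13 passed, with Rbl1 at 14.2 and 16.1 CPM in Irx5KO, against 44.7 and 39.7 CPM in WT (-1.48 ± 0.32, edgeR adjusted p 0.057), and E2f8 at 7.34 and 5.14 CPM in Irx5KO, against 18.3 and 22.2 CPM in WT (-1.70 ± 0.44, 0.14).

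Of 28 S-phase genes known as E2F targets, 20 rose and none fell in Irx5KO at the earlier P20 date (median log2 fold change 2.17). At the later date 5 fell and none rose (median -1.19). Over all genes tested, 2.2% rose at the earlier date and 0.516% fell at the later one. Uhrf1, which maintains DNA methylation at replication forks, measured 191 and 210 CPM in Irx5KO, against 4.53 and 5.75 CPM in WT, at the earlier date (5.29 ± 0.34), and 9.38 and 7.05 CPM in Irx5KO, against 77.5 and 68.4 CPM in WT, at the later date (-3.15 ± 0.30, edgeR adjusted p 0.00016). Mcm2, a subunit of the replicative helicase, measured 150 and 154 CPM in Irx5KO, against 10.1 and 12.5 CPM in WT, at the earlier date (3.75 ± 0.30), and 10.5 and 9.65 CPM in Irx5KO, against 69.4 and 79.8 CPM in WT, at the later date (-2.89 ± 0.29, edgeR adjusted p 0.00019). Uhrf1 and Mcm2 were named because they are among the 4 genes of smallest p in this list at both dates. Their log2 fold changes were larger in size than that of any of the 8 members at both dates. The medians lay closer, at 2.17 for the list and 1.37 for the members at the earlier date, and -1.19 and -0.87 at the later one.
All 6 of the S and M phase genes Ccna2, Ccnb1, Cdk1, Mki67 and their relatives rose in Irx5KO at the earlier date (median 6.56), and 2 of the 6, Mki67 and Ccnb1, fell at the later date (median -2.54). Mki67 measured 1253 and 1421 CPM in Irx5KO, against 10.5 and 3.76 CPM in WT, at the earlier date (7.53 ± 0.52, edgeR adjusted p 7.6e-06), and 18.5 and 14.5 CPM in Irx5KO, against 430 and 228 CPM in WT, at the later date (-4.32 ± 0.45, 0.00043). In bulk libraries, fewer cells of a type and less RNA per cell cannot be told apart, and the part that the share of dividing cells has in the values of the 8 members was not tested.

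Among 26 mitogen, Wnt and Hedgehog pathway genes, Gli1, a Hedgehog effector and target, passed at both dates. It measured 40.6 and 55.5 CPM in Irx5KO, against 176 and 213 CPM in WT, at the later date (-2.02 ± 0.27, edgeR adjusted p 0.0018), and 318 and 252 CPM in Irx5KO, against 61.5 and 80.6 CPM in WT, at the earlier date (2.00 ± 0.27, 0.0004). Mycn, an E-box-binding Myc factor, was the other of the 26 to pass at the earlier date, with 48.6 and 30.9 CPM in Irx5KO, against 6.73 and 6.18 CPM in WT (2.62 ± 0.61, edgeR adjusted p 0.022). Myc itself had a log2 fold change of 1.02 ± 0.38 at the later date and did not pass (edgeR adjusted p 0.51).
Of 8 genes for activation and assembly of Cdk complexes, Cks2 alone passed at the earlier date (3.57 ± 0.62, edgeR adjusted p 0.0032) and none at the later one. Of 11 genes for G1 cyclin and inhibitor turnover, Cul1, the scaffold of the SCF ubiquitin ligase, alone passed at the earlier date, with 41.8 and 48.5 CPM in Irx5KO, against 153 and 111 CPM in WT (-1.55 ± 0.28, edgeR adjusted p 0.0046), and none at the later one, where Cul1 measured 163 and 159 CPM in Irx5KO, against 121 and 73.1 CPM in WT (0.73 ± 0.28). Of 25 other cyclins and Cdks, Ccno alone passed at the earlier date (-3.44 ± 0.58) and none at the later one (Ccno 1.81 ± 0.52, edgeR adjusted p 0.22). At P18 no gene of any of these lists passed.

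**Figure D5:**
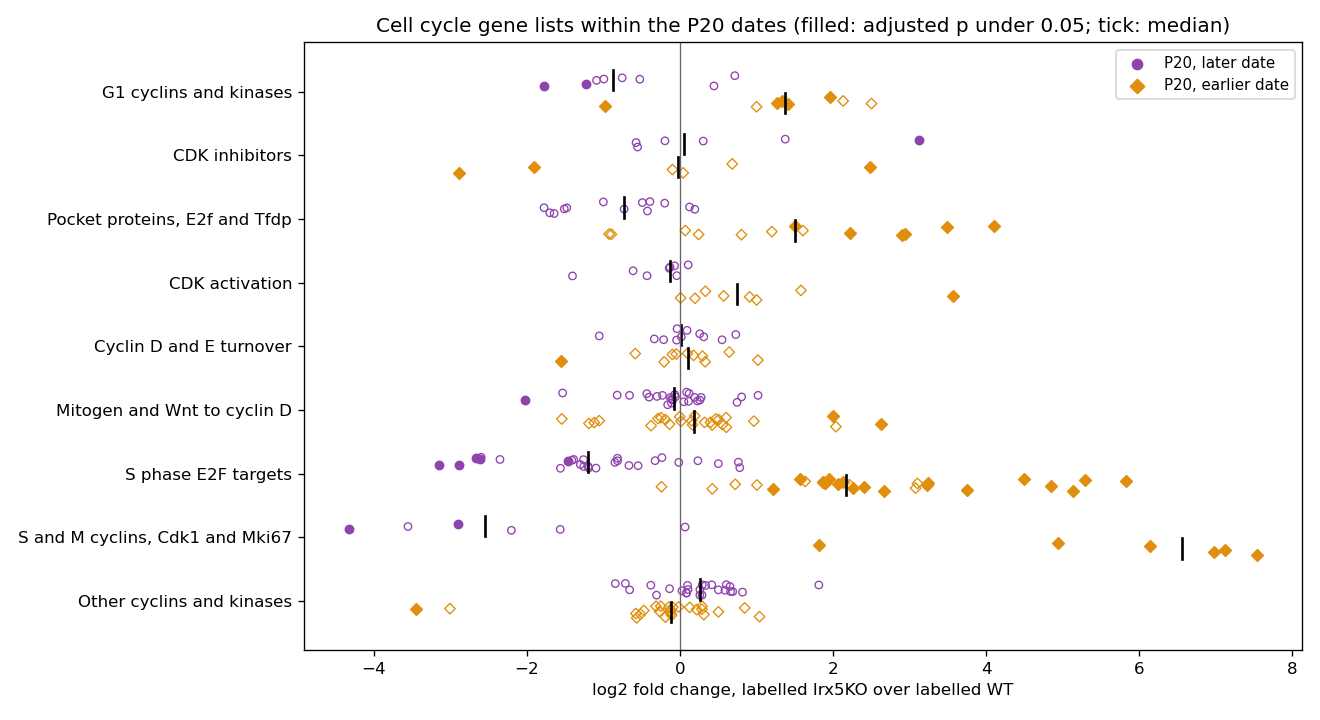
Log2 fold change of every gene tested in each pathway list, Irx5KO over WT, at the later and at the earlier P20 date, with a tick at the median of each list and genes past the test filled. The S-phase E2F targets have medians of -1.19 at the later date and 2.17 at the earlier one, and the S and M phase genes of -2.54 and 6.56.

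The nearest genes to each member in level pattern were taken over the 14 libraries, by the root mean square distance of centred log2 CPM. The search covered 9872 protein-coding genes of at least 8 CPM on average. Provisional gene models were left out, as was LTO1, which overlaps Ccnd1. Closest were Klc3 (0.16) and Tns2 (0.17) to Ccnd3, Srrt (0.16) and Ddx20 (0.17) to Cdk2, Rpa1 (0.17) and Pygb (0.20) to Cdk4, and Anapc15 (0.19) and Rbmx (0.22) to Cdk6. Ccnd1 had Sae1 (0.34) and Pygb (0.34), Ccnd2 had Antxr1 (0.32) and Mcm4 (0.33), Ccne1 had Timm13 (0.47) and Cdt1 (0.52), and Ccne2 had Prim1 (0.42) and Echdc1 (0.42), all in log2 units. Pygb was thus near to both Ccnd1 and Cdk4, at 176.6 and 139 CPM in Irx5KO, against 71.7 and 91.9 CPM in WT, at the earlier P20 date, and 39.2 and 44.6 CPM in Irx5KO, against 78.2 and 95.7 CPM in WT, at the later date. Tns2, near to Ccnd3, had 146 and 156 CPM in Irx5KO, against 289.6 and 357 CPM in WT, at the earlier date, and 224 and 248 CPM in Irx5KO, against 136 and 119 CPM in WT, at the later one.

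At most 1 gene of each cell type marker list passed at the earlier P20 date, where 4.82% of all genes tested passed. Summed melanocyte markers ran from 82.3 to 83.6 CPM in Irx5KO and from 230.1 to 252 CPM in WT, with 1 of 6 passing (Mitf, -1.86 ± 0.29). Mitf made up most of that sum, at 70.6 and 70.5 CPM in Irx5KO, against 223 and 246 CPM in WT, whereas Dct measured 11.8 and 10.3 CPM in Irx5KO, against 4.74 and 2.76 CPM in WT. Summed bulge markers ran from 30828 to 32022 CPM in Irx5KO and from 37437 to 47683 CPM in WT, with 1 of 12 passing (Angptl7, -3.99 ± 0.62, edgeR adjusted p 0.0060).
Endothelial markers summed to 4.83 to 7.50 CPM in Irx5KO and 6.69 to 12.6 CPM in WT. Cdh5, Kdr, Tie1 and Esam were at 0 in both Irx5KO libraries. Of the 6, 1 passed: Kdr, which measured only 0.63 and 0.72 CPM in WT. Fibroblast markers summed to 299.5 to 332 CPM in Irx5KO and 207 to 308 CPM in WT. Most of that sum was Col1a1 (269 and 239 CPM in Irx5KO, against 109 and 99.6 CPM in WT), while 6 of the 7 had no positive log2 fold change, the list's median was -2.99, and the 1 that passed, Pdgfra, fell. Sebaceous markers summed to 138 to 194 CPM in Irx5KO and 78.2 to 80.8 CPM in WT with none passing, carried by Scd1 (168 and 104 CPM in Irx5KO, against 58.8 and 60.0 CPM in WT), with a list median of -0.80. T cell markers summed to 33.4 to 42.1 CPM in Irx5KO and 49.1 to 56.8 CPM in WT, and suprabasal markers to 1035 to 1206 CPM in Irx5KO and 706 to 1625 CPM in WT, with none passing. Langerhans cell and macrophage markers summed to 19.8 to 20.8 CPM in Irx5KO and 22.7 to 32.4 CPM in WT, and hair germ, matrix and shaft markers to 78.6 to 91.0 CPM in Irx5KO and 87.7 to 149 CPM in WT, also with none passing.
At the later date no marker of any list passed, with bulge markers at 32009 to 33908 CPM in Irx5KO and 28414 to 31359 CPM in WT, melanocyte markers at 170 to 208 CPM in Irx5KO and 116 to 131 CPM in WT, and T cell markers at 192 to 212 CPM in Irx5KO and 146 to 855 CPM in WT. Thy1 made up most of the T cell sum at both P20 dates. At the later date it measured 171 and 184 CPM in Irx5KO, against 136 and 824 CPM in WT. Cd3d measured 15.9 and 21.1 CPM in Irx5KO, against 8.22 and 20.7 CPM in WT. All 7 suprabasal markers had positive log2 fold changes (median 0.98), and their sum was 4796 CPM in Irx5KO 1 and 1314 CPM in Irx5KO 2, against 1795 and 1343 CPM in WT. Irx5KO 1 was also above Irx5KO 2 and both WT libraries in sebaceous markers, at 314 CPM in Irx5KO 1 and 53.1 CPM in Irx5KO 2, against 191 and 139 CPM in WT. Langerhans cell and macrophage markers summed to 134 CPM in Irx5KO 1 and 46.5 CPM in Irx5KO 2, against 70.3 and 70.4 CPM in WT. The part of these markers in the cyclin and kinase values was not tested.

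Some members share a locus with a gene on the other strand, and no source used here gives a strand setting for the quantification. Ccnd1 overlaps LTO1, Ccnd3 overlaps Bysl, Ccne2 overlaps Ints8 over 5622 bases, Cdk2 overlaps Pmel over 837 bases and Cdk4 overlaps Tspan31. None of these 5 partners passed at either P20 date. Ccnd2 overlaps the antisense genes 9330179D12Rik over 2805 bases and Gm43126 over 994 bases, and Cdk6 overlaps Gm17590 over 8013 bases and Gm42435 over 1448 bases. These 4 are not among the genes tested, and whether they were quantified was not examined. Ints8 measured 26.6 to 46.1 CPM over the 14 libraries and was above Ccne2 in each of them.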

How the data were processed

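Per the labels' protocols, RNA of sorted hair follicle stem cells was made into TruSeq libraries and read single-end. The authors quantified transcripts with kallisto 0.46.2, per the submitters' processing notes, which also name mm10 and DESeq2. The deposited tables give estimated counts and TPM for each transcript, per the file headers. Estimated counts were summed by gene (GENCODE vM21, GRCm38) and rounded, and TPM values were summed. Gene levels in CPM use library sizes scaled by TMM over the 10513 genes of mean log2 CPM of at least 3. This was done because olfactory and vomeronasal receptor genes took up to 5.37% of counts in 3 libraries. Levels of cell type markers, summed or single, are CPM of library totals without this scaling.

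Genes were filtered by group (24592 of 34049 kept) and tested in all 14 libraries with edgeR 4.0.16 (quasi-likelihood, robust, R 4.3.3) and Benjamini-Hochberg adjustment at 0.05. Genotype at each age was fitted with the date code as a covariate. The genotype difference within each P20 date, and the difference between the dates, used 1 coefficient per date and genotype, and ages were compared within a genotype by group. Standard errors are the log2 fold change over the root of the F statistic and are approximate. The steps were checked on simulated data. Replicates of a group differed by more than counting noise, with a chi-square of 61.2 to 437 per degree of freedom. Same-numbered libraries deviated together at P18 (correlations 0.366, 0.147 and 0.291), which pairs them by the rule used, and not throughout at P20 (0.041 to 0.438).

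The members, the gene lists and the comparisons by P20 date were chosen with earlier results of these data known. Named genes are the 8 members, Irx5, Mki67, up to 4 genes of smallest p in each pathway list and comparison, the 2 nearest genes of each member, and the most abundant marker genes, and marker genes that passed, which were chosen after their values were seen. Alternatives were DESeq2 1.42.0, other scalings and filters, no date term, the compared groups alone, a replicate block, each library left out, the data without the 3 libraries rich in receptor genes and, chosen after seeing the data, each P20 date alone and protein-coding transcripts alone.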

Additional observations from a re-analysis of the deposited data

Results flagged for a closer look

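For 6 of the 8 members, beside 5.16% of all genes tested, the Irx5KO-over-WT log2 fold change differed between the 2 P20 dates by the edgeR test of the difference itself, taken as the later date minus the earlier one. That test was chosen with earlier results known, in which the dates ran opposite ways. The difference was -2.50 for Ccnd1, -3.74 for Ccnd2, -1.53 for Cdk2, -2.56 for Cdk4 and -2.26 for Cdk6, and 1.70 for Ccnd3. Irx5 differed in the same way, by -4.38, so the genotype labels at the earlier date go against the gene they name. Ccne1 and Ccne2 did not pass. Single libraries that stand apart could be looked for only in the P20 groups of 4, which join both dates, and none was found in 16 such groups. Where the dates lie apart they widen the range of a group, so a single library is hardly flagged and finding none says little. Ccne1 stood at 23.4 CPM in P20 Irx5KO 4, against 5.58 to 10.3 CPM in the other P20 Irx5KO libraries, and was not flagged. The P18 groups of 3 were not examined.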

How the results depend on the processing

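Over the alternatives run, 1308 values of single members kept direction and call, 59 lost a call, 19 gained one and 78 changed sign, and 510 counts and shares stayed near their value while 87 moved. Low counts of the E cyclins and groups of 2 libraries limit the single-date values.

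Scaling on all genes gave P18 values of 0.28 for Cdk2 and 0.29 for Cdk6, age differences of the genotype effect of -0.32 for Cdk4, -0.068 for Cdk2 and -0.17 for Cdk6, and 0.19 for Cdk6 with age in WT. It left 0 members lower at the later P20 date, 1 higher and 0 lower at the earlier one, 0 higher in the date difference, and 101 genes with age in Irx5KO and 0 in WT. DESeq2's size factors in edgeR gave 0.0246 for Cdk2 and 0.0259 for Cdk6 at P18 and -0.0374 for Cdk4 in the age difference.
With no filter, 183 genes passed at P18, 209 at P20, 19 in the age difference, 670 at the later date, 2100 at the earlier one and 2042 in the date difference. A filter of 1 CPM in 3 libraries left 1 member lower at the later date. DESeq2 called 21 genes at P18, 87 at P20, 22 in the age difference, 463 at the later date, 2647 at the earlier one, 2404 in the date difference, 1390 with age in Irx5KO and 682 in WT, with 7 members higher at the earlier date and 2 with age in Irx5KO. It gave 0.0245 for Cdk2 and 0.0259 for Cdk6 at P18 and -0.0375 for Cdk4 in the age difference.
Without the date term Ccnd1 stood at 0.41 in the age difference. With only the compared groups, 1 member was lower at the later date, and 153 genes passed with age in Irx5KO and 0 in WT.

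With the replicate block no member passed, as without it: 0 genes passed at P18, at P20 and in the age difference, where Cdk4 stood at -0.069, and 368 passed with age in Irx5KO (387 without the block) and 44 in WT (48 without it). The block was not fitted within single P20 dates or to the date difference.

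Without the 3 libraries rich in receptor genes, P18 values were -0.12 for Cdk4, 0.028 for Cdk6 and -0.051 for Ccnd1, the age difference of Ccnd1 was 0.58, and Cdk4 stood at -0.0090 with age in WT. No member (0) was then lower at the later date, 1878 genes passed at the earlier one and 2 with age in WT. Without the earlier P20 date, 1 member was lower at the later one and 1 with age in Irx5KO, where Cdk4 stood at -0.65, Ccnd3 at 0.058, Cdk6 at -0.81 and Ccnd1 at -0.43, and in WT 235 genes passed, with Ccnd3 at -0.46 and Cdk6 at 0.13. Without the later P20 date, 3705 genes and 5 members were called with age in Irx5KO (Ccnd2 0.66), and 2260 genes and 2 members in WT (Ccnd2 -0.59, Cdk2 -0.33). Mean shares were 71.3% for Ccne1 among E cyclins on coding TPM, beside 45.3% in TPM, and for Cdk4 beside Cdk6 58.1% on coding TPM and 51.5% in counts, beside 75.4%. The cause of these changes was not tested.

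Leaving out 1 library at a time, 0 to 1 genes passed at P18 and in the age difference, 30 to 255 at the later date (0 to 2 members lower), 424 to 1576 at the earlier one (0 to 4 members higher, 0 to 1 lower), 649 to 1446 in the date difference (0 to 1 higher, 3 to 5 lower), 56 to 416 with age in Irx5KO and 5 to 90 in WT. Mean shares ran from 53.6% to 57.8% for Ccnd3, 43.6% to 47.0% for Ccne1 and 74.8% to 76.4% for Cdk4. Signs crossed 0 in these ranges: at P18 Ccnd1 -0.0080 to 0.50, Cdk2 -0.10 to 0.045, Cdk4 -0.078 to 0.18 and Cdk6 -0.11 to 0.070, at P20 Ccnd1 -0.32 to 0.56, Ccnd2 -0.70 to 0.75, Ccnd3 -0.40 to 0.10, Cdk2 -0.029 to 0.49, Cdk4 -0.36 to 0.44 and Cdk6 -0.23 to 0.48, and at the later date Ccne1 -0.047 to 0.87. In the age difference they were Ccnd1 -0.57 to 0.32, Ccnd2 -1.42 to 0.037, Cdk4 -0.42 to 0.39 and Cdk6 -0.21 to 0.50, with age in Irx5KO Ccnd2 -0.58 to 0.13 and Cdk6 -0.19 to 0.33, and in WT Ccnd2 -0.19 to 0.40 and Cdk2 -0.040 to 0.32.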

Other observations

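Which transcripts of Cdk2 and Cdk4 the counts came from also varied between libraries. Transcripts annotated as retained introns held 16.9% to 61.9% of Cdk2 counts and 15.1% to 61.3% of Cdk4 counts over the 14 libraries. For Cdk4 the mean share was 35.3% ± 5.89 in Irx5KO and 17.0% ± 2.65 in WT at the earlier P20 date, and 41.1% ± 7.17 in Irx5KO and 32.9% ± 5.45 in WT at the later one (SD, n = 2 each). At P18 it was 32.3% ± 4.81 in Irx5KO and 50.9% ± 12.5 in WT (SD, n = 3 each). For Cdk2 it was 57.6% ± 7.10 in Irx5KO and 46.1% ± 3.45 in WT at P18 (SD, n = 3 each), 44.6% ± 6.37 in Irx5KO and 52.2% ± 2.46 in WT at the later P20 date, and 35.1% ± 25.7 in Irx5KO and 40.5% ± 3.36 in WT at the earlier one (SD, n = 2 each). These are kallisto's divisions of reads between overlapping transcripts, and no test was run on them.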
